A study of Mus musculus with 6 samples.

Results

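The 10 genes described here encode growth factor receptor tyrosine kinases of the FGF, PDGF, MET, TAM and DDR families, which are Fgfr1, Fgfr2, Fgfr3, Fgfr4, Pdgfra, Pdgfrb, Met, Mst1r, Axl and Ddr1. They were picked out by name from the 52636 genes of the count table, and all 10 were found in it. RNA from 3 biological replicates each of J110 and SSM3 cells, both cultured mouse mammary tumour lines, was sequenced from its 3′ ends. J110 cells came from transgenic mice that carry AIB1 cDNA under the MMTV LTR, and SSM3 cells came from mammary tumours of 129SvEv mice. The labels give no treatment for either line. The lines also differed in medium supplements, serum and CO2 content, so line, mouse strain and culture cannot be told apart, and each is a single cell line.

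Receptor tyrosine kinases span the cell membrane, bind a ligand outside the cell and phosphorylate tyrosines on themselves and on docked proteins, which feeds the RAS-MAPK and PI3K pathways. In the mammary gland, FGFR2 is known as a receptor of the epithelium that answers FGF7 and FGF10 from the stroma, while FGFR1, AXL and the PDGF receptors are better known from mesenchymal cells and from carcinoma cells that have acquired mesenchymal features. MET is the receptor of HGF, MST1R (also RON) that of MSP, AXL that of GAS6, and DDR1 is bound by collagen.

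Total counts ranged from 5209740 to 5416305 in the 3 libraries labelled J110 and from 4200785 to 4792941 in the 3 labelled SSM3. Levels are in CPM, the counts of a gene scaled to a common library total, here with TMM factors that offset differences in composition. A count of 3 in a library was taken as the floor below which a gene was not detectable, which is 0.578 to 0.668 CPM, and it covers counting error only. J110 and SSM3 are named here as the libraries are labelled. Ncoa3, which encodes AIB1, was lower in the libraries labelled J110, at 21.2 ± 0.166 CPM (SD, n = 3) against 39.9 ± 2.65 CPM (SD, n = 3), and it shares exons with Sulf2. A 3′ tag need not lie in a cDNA transgene, so this value does not check the labels. Of the epithelial markers, Epcam averaged 0.681 ± 0.681 CPM over the J110 libraries against 507 ± 24.8 CPM over those of SSM3, and Cdh1 averaged 4.02 ± 1.83 CPM against 1374 ± 47.8 CPM (SD, n = 3 each). Krt19, Cldn4 and, less so, Krt8 were also higher in SSM3, with Krt8 at 1275 CPM in J110 against 2270 CPM in SSM3. Krt18 went the other way, at 1430 CPM in J110 against 970 CPM in SSM3. The 6 epithelial markers summed to between 2677 and 2766 CPM in J110, nearly all of it Krt8 and Krt18. In SSM3 they summed to between 12313 and 13512 CPM. Of the 6 endothelial markers 3 were above the floor in J110, where they summed to between 158 and 181 CPM, nearly all of it Cdh5, and none in SSM3. Of the 6 leukocyte markers 1 was above the floor in J110 and none in SSM3. The part of these markers in the values that follow was not tested. Counts at the ribosomal RNA locus made up 15.05% to 17.16% of the J110 libraries and 0.779% to 1.27% of those of SSM3. Nothing in the sources used here says how the biological replicates of a line were separated, so p-values measure the spread between these libraries. In cultured cells as in other bulk samples, fewer cells of a type and less RNA per cell cannot be told apart.

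Fgfr1 and Axl were abundant in J110 and nearly absent from SSM3, Fgfr2 showed the opposite pattern, Fgfr3 and Ddr1 were higher in SSM3, and Met was counted at similar levels in both lines. Fgfr4, Pdgfrb and Mst1r were at the floor in every library, and Pdgfra was close to it. Of the 10 genes, 6 had enough counts to be tested with edgeR's quasi-likelihood test, and 5 of these had an adjusted p below 0.05, 3 higher and 2 lower in SSM3. This share is to be read against a background of 77.9% of all 12284 genes tested, 38.6% higher and 39.2% lower in SSM3. For 4 of the 6 the difference was also at least 4-fold, where the background is 21.7%.

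**Figure D1:**
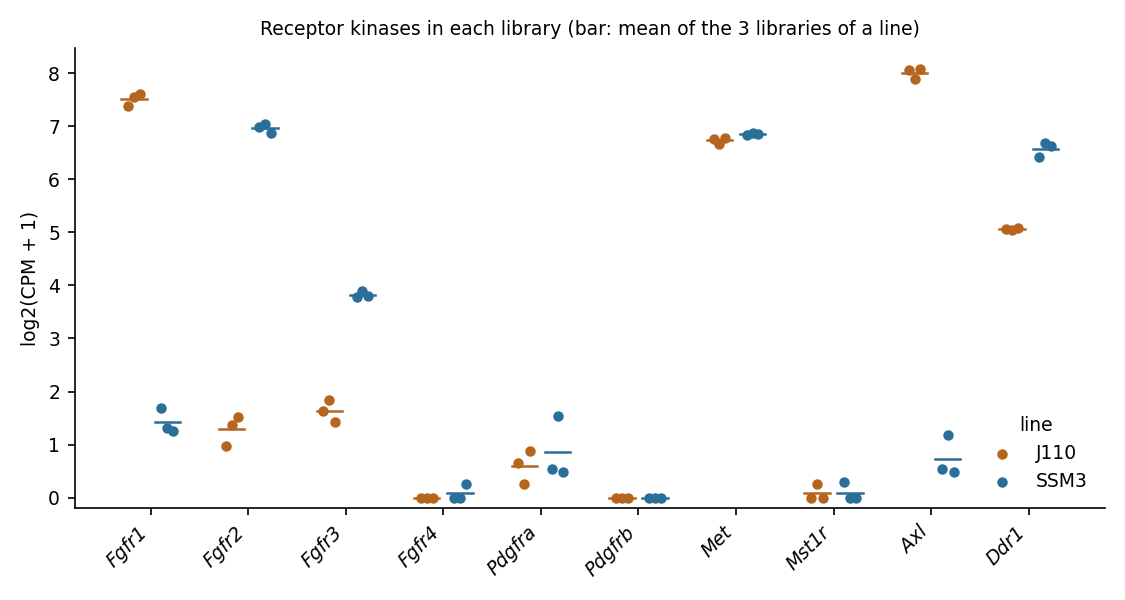
Level of each receptor kinase gene in each of the 6 libraries, as log2(CPM + 1) on the vertical axis, with J110 in brown, SSM3 in blue and a bar at the mean of the 3 libraries of a line. Fgfr1 and Axl are high in J110 alone, Fgfr2 in SSM3 alone, and Met lies near the same level in both.

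The sequences around the transcription start of Axl, of Fgfr2 and of Met are shown because these genes stand for the 3 patterns, high in J110, high in SSM3 and similar in both. Each runs from 250 bases before to 50 bases after the RefSeq start in GRCm38.p6, the build of mm10, at chr7:25788684-25788983 on the reverse strand for Axl, chr7:130266759-130267058 on the reverse strand for Fgfr2 and chr6:17463707-17464006 on the forward strand for Met. Capitals mark matches, on either strand, to the AP-1 motif TGACTCA, the E-box CACCTG and the GC box GGGCGG, and the TATA motif TATAAA was searched too.
Axl: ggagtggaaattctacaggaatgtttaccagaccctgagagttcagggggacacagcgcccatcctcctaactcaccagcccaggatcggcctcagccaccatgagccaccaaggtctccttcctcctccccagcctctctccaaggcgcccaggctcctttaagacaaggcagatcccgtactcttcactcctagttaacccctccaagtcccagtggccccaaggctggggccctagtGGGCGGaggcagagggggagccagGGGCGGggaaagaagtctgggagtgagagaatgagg
Fgfr2: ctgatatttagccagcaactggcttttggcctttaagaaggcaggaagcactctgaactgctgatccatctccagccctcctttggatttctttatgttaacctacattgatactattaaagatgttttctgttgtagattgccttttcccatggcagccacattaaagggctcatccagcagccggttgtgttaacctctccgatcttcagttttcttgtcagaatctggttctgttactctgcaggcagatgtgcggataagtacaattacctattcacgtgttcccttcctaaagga
Met: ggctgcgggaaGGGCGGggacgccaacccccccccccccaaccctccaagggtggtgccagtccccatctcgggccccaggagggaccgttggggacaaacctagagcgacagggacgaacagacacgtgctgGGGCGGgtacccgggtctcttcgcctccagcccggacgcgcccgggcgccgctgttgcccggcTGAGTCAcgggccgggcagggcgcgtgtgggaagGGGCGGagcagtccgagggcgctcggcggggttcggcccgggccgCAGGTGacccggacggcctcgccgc
The Axl window held 2 GC boxes and the Fgfr2 window no match to any of the 4 motifs. The Met window held 3 GC boxes, 1 AP-1 match and 1 E-box match. Among 32851 RefSeq windows of the same length, 35.7% held a GC box, 20.2% the E-box, 13.6% the TATA motif and 5.20% the AP-1 motif. The Met window was the richest of the 3 in CG dinucleotides, with 34, more than 92.3% of all windows had, while the Axl window held 6 and the Fgfr2 window 4, beside a median of 7. A match is a description of letters, and the 3′ reads do not show where a transcript began.

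Among the FGF receptors, Fgfr1 in J110 and Fgfr2 in SSM3 took opposite places. Fgfr1 (ENSMUSG00000031565, chromosome 8 of mm10 from 25513654 to 25575718, forward strand) was counted 859, 947 and 933 times in the J110 libraries and 10, 7 and 7 times in those of SSM3. Every J110 library was far above every SSM3 library, with means of 183 ± 15.1 CPM (SD, n = 3) and 1.70 ± 0.457 CPM (SD, n = 3). Log2 fold changes are given for SSM3 against J110, and that of Fgfr1 was -6.73 ± 0.16 (SE, edgeR adjusted p = 1.24e-15), a ratio of the mean CPM of 107.

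Fgfr2 (ENSMUSG00000030849, chromosome 7 from 130162451 to 133123350, reverse strand) was counted 5, 8 and 9 times in the J110 libraries and 562, 618 and 586 times in those of SSM3. Here the SSM3 libraries were the high ones, with 124 ± 7.35 CPM (SD, n = 3) against 1.47 ± 0.466 CPM (SD, n = 3), and the groups did not overlap. The log2 fold change was 6.38 ± 0.16 (SE, edgeR adjusted p = 2.92e-15), a ratio of 84.3. Its annotated gene model shares exons on the same strand with Ctbp2, which had 947 to 1179 counts in J110, where Fgfr2 had at most 9, and 377 to 389 counts in SSM3. Counts per gene at the 3′ end do not resolve the epithelial IIIb and mesenchymal IIIc splice forms of the FGF receptors.

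Fgfr3 (ENSMUSG00000054252, chromosome 5 from 33721674 to 33737068, forward strand) was counted 11, 13 and 8 times in the J110 libraries and 57, 65 and 65 times in those of SSM3. Every SSM3 library was above every J110 library, the log2 fold change being 2.61 ± 0.25 (SE, edgeR adjusted p = 5.72e-08), although its level remained low at 13.1 ± 0.584 CPM (SD, n = 3). Fgfr4 had a single count, in SSM3 replicate 3.

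Because QuantSeq reads come from the 3′ end of a transcript and are not divided by length, counts of the FGF receptors were set against their own sum in each library. Fgfr1 held from 97.8% to 98.2% of these counts in J110 and from 1.01% to 1.59% in SSM3. Fgfr2 held from 88.9% to 89.6% in SSM3 and from 0.571% to 0.947% in J110, and Fgfr3 held from 9.06% to 9.86% in SSM3. The receptor identity differed almost completely between the lines, while the sum differed less, from 186 ± 15.5 CPM (SD, n = 3) in J110 to 139 ± 7.73 CPM (SD, n = 3) in SSM3. The sums did not overlap, for which an exact permutation test (two-sided) gave p = 0.1, and no smaller p can be reached with 3 libraries a line.

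**Figure D2:**
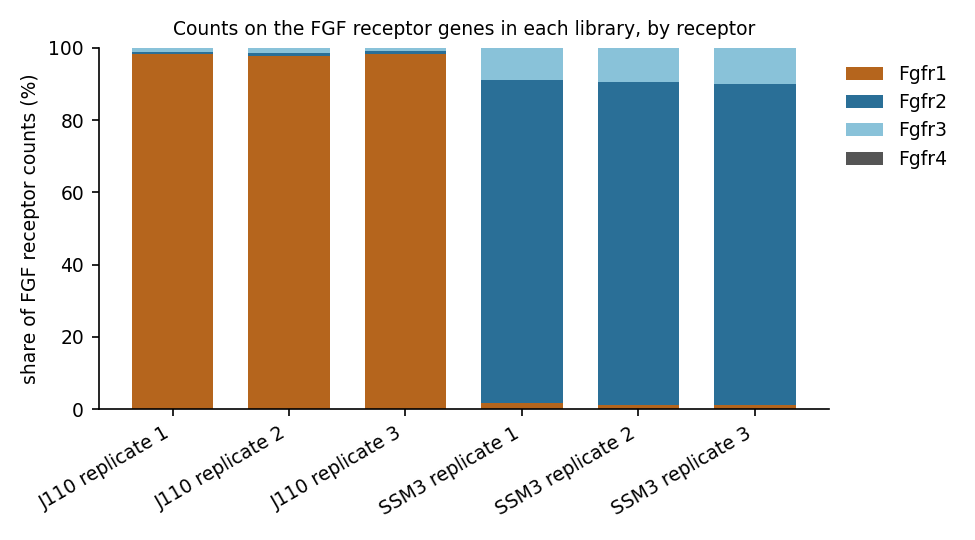
Share of the counts on Fgfr1 to Fgfr4 that fell on each receptor, in percent, stacked for each library. Fgfr1 fills at least 97.8% of each J110 bar, and Fgfr2 with Fgfr3 fills nearly all of each SSM3 bar.

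Low counts in the line with the lower level need care in these libraries. Of 177 genes with at least 100 counts in each SSM3 library and at least 100 times fewer counts in J110, 122 had a count in J110 replicate 3, against 78 and 72 in replicates 1 and 2. Of 236 genes chosen the same way for J110, 171 had a count in SSM3 replicate 2, against 113 and 80 in replicates 1 and 3. In J110, Fgfr2 was counted at 0.775%, 1.27% and 1.51% of its mean SSM3 level in replicates 1, 2 and 3. The epithelial marker Epcam was counted at 0.0761%, 0.0390% and 0.288% of its SSM3 level in the same libraries, lower in each of them than Fgfr2. Fgfr1 in SSM3 was counted at 1.22%, 0.814% and 0.763% of its J110 level, with the highest share in replicate 1. Axl in SSM3 was counted at 0.174%, 0.497% and 0.155% of its J110 level, with the highest share in replicate 2. What part of these low counts comes from the other line was not tested. Without J110 replicate 3 and SSM3 replicate 2 together, an alternative chosen after seeing the data, the same number of receptors, 5, was called, and the log2 fold changes were -6.60 for Fgfr1 and 6.55 for Fgfr2. Axl was then at the floor in SSM3 and at least 375-fold lower.

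Axl (ENSMUSG00000002602, chromosome 7 from 25757273 to 25788705, reverse strand), a TAM receptor, showed the largest change of the receptors tested. It was counted 1376, 1189 and 1286 times in the J110 libraries and 2, 6 and 2 times in those of SSM3. All J110 libraries were high and all SSM3 libraries were near the floor, with means of 256 ± 18.3 CPM (SD, n = 3) and 0.706 ± 0.493 CPM (SD, n = 3). The log2 fold change was -8.46 ± 0.19 (SE, edgeR adjusted p = 7.01e-16). Without SSM3 replicate 2, which held 6 of the 10 SSM3 counts, Axl was at the floor in SSM3 and at least 384-fold lower there. Only 2.74% of all genes tested differed by more between the lines, against 6.46% for Fgfr1 and 6.90% for Fgfr2.

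Of the 4 TAM ligands and sister receptors 3 were tested, with 1 higher and 1 lower in SSM3, a share called of 66.7% beside 77.9% of all genes tested. Tyro3 was higher in every SSM3 library, at a log2 fold change of 0.67 ± 0.16 (SE, edgeR adjusted p = 0.00103), and Mertk did not pass the floor in any library. The ligand Gas6, which bridges TAM receptors to phosphatidylserine, was counted 45, 68 and 33 times in the J110 libraries and 0, 0 and 1 times in those of SSM3. It was thus at least 14.5-fold lower in SSM3 (edgeR adjusted p = 4.86e-08), the same direction as Axl. The other ligand, Pros1, had 20 to 32 counts in J110 and 16 to 25 in SSM3, and did not pass the test (edgeR adjusted p = 0.756).

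Ddr1 (ENSMUSG00000003534, chromosome 17 from 35681567 to 35704621, reverse strand), the collagen receptor of epithelial cells, was counted 167, 161 and 158 times in the J110 libraries and 381, 480 and 489 times in those of SSM3. Every SSM3 library was higher, with 94.7 ± 8.84 CPM (SD, n = 3) against 32.3 ± 0.576 CPM (SD, n = 3), a log2 fold change of 1.55 ± 0.098 (SE, edgeR adjusted p = 3.54e-10). Its sister Ddr2, known from mesenchymal cells, had 5 to 20 counts in J110 and 1 to 7 in SSM3 and was not tested. Over the 6 libraries, the genes with log2 CPM profiles nearest to that of Ddr1 were Tmem161a, at a Euclidean distance of 0.0776, and Urm1, at 0.136.

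Met (ENSMUSG00000009376, chromosome 6 from 17463800 to 17573980, forward strand) had similar counts in both lines, 556, 508 and 522 in J110 and 507, 545 and 577 in SSM3. The means were 106 ± 4.46 CPM and 114 ± 1.45 CPM (SD, n = 3 each). The 3 SSM3 libraries lay just above the 3 J110 libraries, as the libraries of the lines did without overlap for 79.6% of the genes tested. The log2 fold change of 0.12 ± 0.079 (SE), with 95% limits of -0.05 and 0.29, did not pass the test (edgeR adjusted p = 0.186). These limits leave room for a difference in either direction. With library size scaling alone the value for Met was 0.29 (edgeR adjusted p = 0.00323), where the median of all genes tested moved from -0.014 to 0.16. The genes nearest to Met in profile were Cdc34 and Nans, at distances of 0.154 and 0.225.

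Mst1r, the sister of Met, had 1 count in each line. The ligands of both receptors were also missing, since Hgf had no count in any library and Mst1, which encodes MSP, had at most 2. Proteases that activate these ligands and inhibitors of the proteases were counted. Of the 10 genes of this list 6 were tested and all passed, 5 higher and 1 lower in SSM3, beside 38.6% higher and 39.2% lower among all genes tested. St14, the protease matriptase, was at least 85.0-fold higher in SSM3, and Tmprss2, a related membrane serine protease, at least 416-fold higher, at 260.2 ± 37.6 CPM (SD, n = 3). Hpn, the protease hepsin, had no count in J110 and was at least 11.1-fold higher in SSM3. Spint1, which encodes the HGF activator inhibitor HAI-1, had 0, 4 and 3 counts in J110 and 655, 706 and 655 in SSM3, and its log2 fold change was 8.18 ± 0.23 (SE, edgeR adjusted p = 1.06e-14). Leaving out J110 replicate 1 turned this value to 7.58. Spint2, which encodes HAI-2, was also higher, by 1.37 on the log2 scale (edgeR adjusted p = 1.26e-05). Plau, the urokinase gene, was the tested gene of the list that was lower in SSM3, with 90, 111 and 95 counts in J110 and 17, 7 and 7 in SSM3 (log2 fold change -3.16, edgeR adjusted p = 2.48e-08), which became -3.75 without SSM3 replicate 1. Hgfac, the HGF activator protease, was not tested and had 11, 6 and 10 counts in J110 and 0, 0 and 2 in SSM3, without overlap and at least 2.69-fold lower in SSM3. The epithelial markers Epcam, Cdh1, Krt8, Krt19 and Cldn4 were higher in SSM3 as well and Krt18 was lower, and their part in these values was not tested.

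For the PDGF family, receptors were nearly missing and ligands were present. Pdgfra (ENSMUSG00000029231, chromosome 5 from 75152292 to 75198215, forward strand) was counted 3, 1 and 4 times in J110 libraries and 2, 9 and 2 times in SSM3, which overlapped and were too few to test. Pdgfrb had 0 counts in all 6 libraries, which allows up to 0.668 CPM in the shallowest. Fibroblast and mural cell markers were read beside them, since these are the cells known for PDGF receptors. No library had a count of Col1a2 or Lum, Rgs5 and Cspg4 had at most 5, and the markers above the floor were Col1a1 and Dcn in J110 and Dcn, Notch3 and Cspg4 in SSM3. Summed over the 7 fibroblast markers, the range was 0.964 to 3.55 CPM in J110 and 1336 to 1479 CPM in SSM3, where nearly all of it was Dcn. The 6 mural markers summed to at most 1.16 CPM in J110 and to between 50.5 and 55.5 CPM in SSM3, most of it from Notch3.

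Of the 4 PDGF ligands, 3 were tested and all 3 were lower in SSM3, with a median log2 fold change of -2.42, where 39.2% of all genes tested were lower. Pdgfa had 917 to 1035 counts in J110 and 426 to 475 in SSM3, a log2 fold change of -1.01 ± 0.077 (SE, edgeR adjusted p = 3.64e-09). Pdgfc had 203, 299 and 203 counts in J110 and 42, 43 and 39 in SSM3, a log2 fold change of -2.42 ± 0.18 (SE, edgeR adjusted p = 2.92e-09). Pdgfb was at the floor in SSM3 and at least 5.55-fold lower there. Csf1r, a kinase of the PDGF receptor class, had 61 to 82 counts in every library, but in 5 of the 6 libraries exactly as many as Hmgxb3, which shares exons with it on the opposite strand, so its value is uncertain. Kit had no count and Flt3 was at the floor in both lines.

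Most FGF ligands were not detected. Of the 22 listed, 16 were at the floor in both lines, 10 of them with no count at all, and 3 could be tested, of which 1 was higher and 2 were lower in SSM3, beside 77.9% of all genes called. Fgf10 had no count, and Fgf7 had 3, 8 and 3 counts in J110 and 0 in SSM3. Fgf2 was lower in SSM3, with 97, 83 and 96 counts in J110 and 30, 27 and 34 in SSM3, and its log2 fold change was -1.52 ± 0.18 (SE, edgeR adjusted p = 1.13e-06). Fgf22 had a log2 fold change of -0.67 (edgeR adjusted p = 0.00286). Fgf2 shares exons with Nudt6 and Fgf22 with Rnf126, each on the opposite strand and with at least 27 counts in every library, so both values are uncertain. Fgf13, whose protein acts inside the cell, was higher by 0.54 with an adjusted p of 0.0496, and 0.21 with DESeq2.

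**Figure D3:**
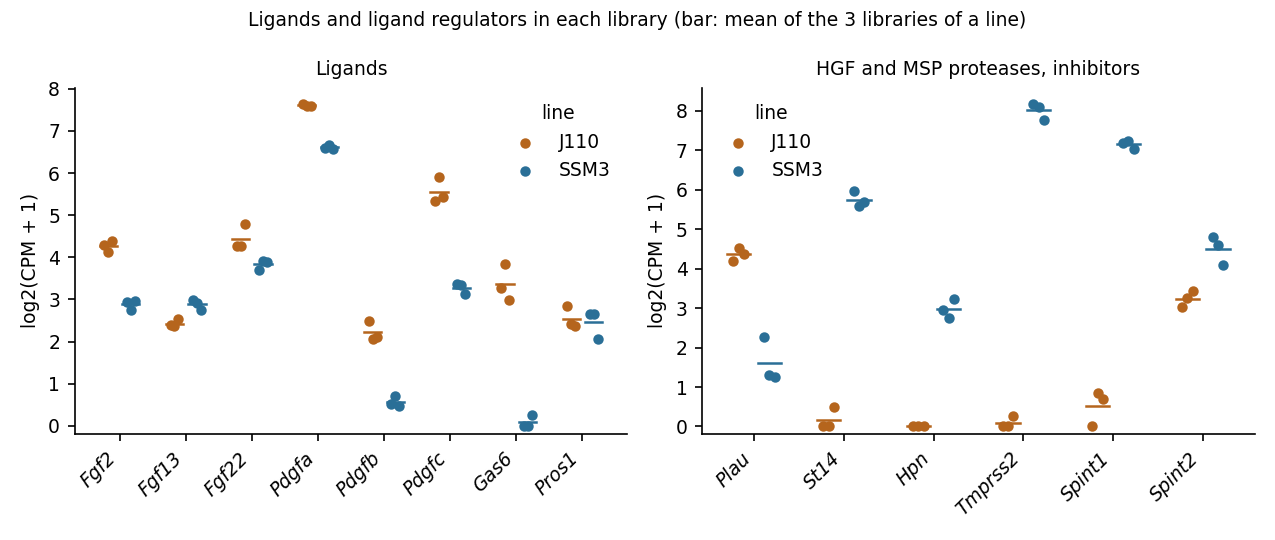
Levels of the 8 FGF, PDGF and TAM ligand genes that were tested (left) and of the 6 tested proteases and inhibitors that act on HGF and MSP (right) in each library, as log2(CPM + 1), with J110 in brown, SSM3 in blue and a bar at the mean of the 3 libraries of a line. Of the ligands 6 are lower in SSM3, Fgf13 is higher and Pros1 overlaps, while St14, Hpn, Tmprss2 and Spint1 are near 0 in J110 and Plau is lower in SSM3.

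Of 12 partners of the FGF receptors 6 were tested, with 1 higher and 3 lower in SSM3, and this share of 66.7% called was below the 77.9% of all genes tested. Il17rd, which encodes the FGF signalling inhibitor SEF, had 62, 70 and 64 counts in J110 and 1, 0 and 0 in SSM3, at least 19.5-fold lower. Frs2, the docking protein that FGF receptors phosphorylate, was lower, with a log2 fold change of -1.28 ± 0.19 (SE, edgeR adjusted p = 1.01e-05). Nptn, a cell adhesion protein that binds FGFR1, was lower, at -0.98 (edgeR adjusted p = 5.54e-09) and shares exons with Rec114. Flrt2, a membrane protein of the FLRT family, was higher by 2.02 (edgeR adjusted p = 2.23e-07). Fgfrl1, the FGF receptor that lacks a kinase domain, and Flrt3 overlapped between the lines, with log2 fold changes of -0.07 each and adjusted p of 0.675 and 0.716. Under library size scaling alone both of these values turned positive.

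Most adaptors and effectors that receptor kinases share were counted in both lines. Of 18 listed 17 were tested, the exception being Crkl, with at most 3 counts in J110 and at most 5 in SSM3. Of the 17, 5 were higher and 10 lower in SSM3, and 15 called is 88.2% beside the background of 77.9%. The median log2 fold change was -0.73, where that of all genes tested was -0.014. The genes higher in SSM3 were Gab1, the docking protein best known downstream of MET, by 2.86 ± 0.22 (SE, edgeR adjusted p = 4.71e-09), Nck2 by 2.09, Sh2b1 by 1.10, Grb2 by 0.65 and Pik3r1 by 0.52 on the log2 scale. Lower were the ubiquitin ligase genes Cblb and Cbl, with log2 fold changes of -2.05 and -1.42, Sos1 (-1.51), Crk (-1.45), Nck1 (-1.33), Ptpn11 (-0.92), Shc1 (-0.91), Src (-0.85), Sos2 (-0.73) and Pik3ca (-0.62). Gab2 and Plcg1 overlapped between the lines and did not pass the test. Paralogs thus went in opposite directions for Nck1 and Nck2, each with no overlap between the lines.

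Genes that receptor kinase signalling is known to induce were read last. Of 16 listed 15 were tested, 6 were higher and 8 lower in SSM3, which is 93.3% called beside 77.9% of all genes, and 10 of these differences were at least 4-fold, 3 higher and 7 lower, beside 1233 higher and 1436 lower of all genes tested, or 21.7% in both directions. Dusp6, the ERK phosphatase, had 1187, 1247 and 974 counts in J110 and 110, 108 and 83 in SSM3, a log2 fold change of -3.41 ± 0.12 (SE, edgeR adjusted p = 2.83e-13). Dusp5 was lower, at -3.59, and the feedback inhibitors Spry2 and Spred2 were at -2.97 and -2.46 on the log2 scale, while Spry4 was at the floor in SSM3 and at least 5.35-fold lower. Fosl1, an AP-1 subunit, had 607, 612 and 491 counts in J110 and 0, 5 and 0 in SSM3, a log2 fold change of -8.23 that became -7.64 without SSM3 replicate 3. Without SSM3 replicate 2, Fosl1 had no count in SSM3 and was at least 169.9-fold lower there.

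The ETS factors of this list did not move together. Etv1 was at least 25.2-fold lower in SSM3, Etv4 was lower, at -0.64 (edgeR adjusted p = 0.00032) and Etv5 overlapped between the lines at 18.0 ± 2.53 and 17.8 ± 2.81 CPM (SD, n = 3 each). Spry1 was higher in SSM3, at a log2 fold change of 3.03, and so were Fos at 3.39, Ier3 at 2.28, Egr1 at 0.84, Spred1 at 0.45 and Dusp4 at 0.29. Dusp4 (edgeR adjusted p = 0.0176) no longer passed without J110 replicate 1 (0.0898), without J110 replicate 2 (0.0535) or without SSM3 replicate 3 (0.0505). The Sprouty genes therefore differed in direction, with Spry1 higher and Spry2 lower in SSM3 without overlap. These genes respond to many signals, and which receptor, if any, they follow in these cells was not tested.

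**Figure D4:**
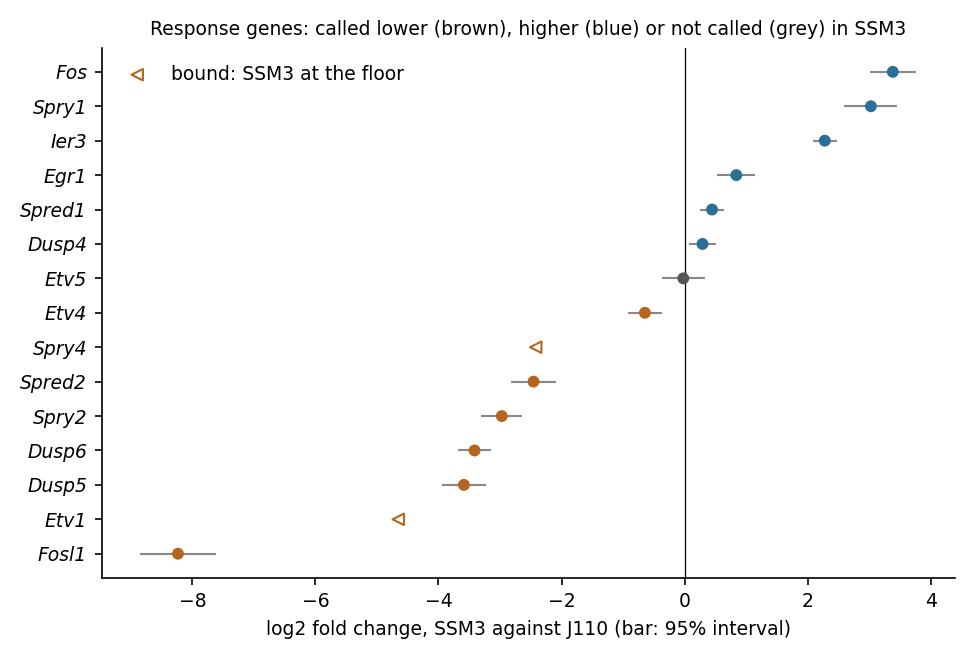
Log2 fold change, SSM3 against J110, of the 15 response genes tested, with 95% limits as bars. The bar of Fosl1, which had 5 counts in SSM3, can be too narrow. Triangles are lower bounds on the size of the change for Spry4 and Etv1, which are at the floor in SSM3, and 8 genes are lower, 6 higher and Etv5 lies near 0.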

How the data were processed

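The authors made QuantSeq 3′ libraries from total RNA, trimmed the reads with cutadapt (version 2.1), mapped them to mm10 with HISAT2 (2.0.4), counted them per gene with featureCounts of Subread (2.0.0) and deposited raw counts, without normalisation, for 52636 genes. The strand setting is not given in the sources used here, so genes that share exons are uncertain. Symbols and coordinates came from GENCODE release M21 (GRCm38), which held 99.7% of the gene identifiers. Promoter windows came from RefSeq, which matched 8 of the 10 receptors.

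All 6 libraries were used. After filterByExpr and TMM scaling, edgeR's quasi-likelihood test was run (edgeR 4.0.16, limma 3.58.1, R 4.3.3), with Benjamini-Hochberg adjustment over all 12284 genes tested and a threshold of 0.05. A standard error (SE) is the absolute log2 fold change divided by the square root of F. A fold change against a line whose libraries all had at most 3 counts was computed against the highest floor of that line. A single test on simulated counts of 12284 genes recovered 91.5% of 200 changed genes, from 77.6% at 2-fold to 100% at 4-fold. Of its calls, 7.58% were unchanged genes. In the real libraries 77.9% of genes were called and some receptors differed far more, so these rates do not carry over to them. Replicates of a line differed by more than sampling noise (chi-square per degree of freedom from 2.21 to 5.62).

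The receptors, the lists of ligands, partners, adaptors and response genes and the cell markers were chosen with earlier results of these data known. Named genes are the receptors, list genes tested with a mean of at least 10 CPM in either line and list genes at the floor. Ctbp2, which shares exons with Fgfr2, is named too. So are the 2 nearest profiles to Met and Ddr1, which have the highest mean log2 CPM of the receptors. Genes that share exons with Fgfr1, Fgfr3, Pdgfra or Ddr1 had at most 1 count in a library and are not named. Gas6, Pdgfb, Hpn, Spry4, Fgf13, Pros1, Fgf7, Ddr2, Hgfac, Crkl, Nudt6, Rnf126, Rec114, Hmgxb3 and the markers singled out were named after their values were seen. Alternatives were other scalings and filters, DESeq2 (1.42.0), limma-voom, the replicate number as a block, leaving out each library, and leaving out 2 libraries together. A check of a further gene is not reported here.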

Additional observations from a re-analysis of the deposited data

How the results depend on the processing

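Of 945 log2 fold changes of 60 named genes under 16 alternatives, 906 kept their direction and their side of the threshold, 17 lost the call, 1 gained it and 21 changed sign. Fgfr1, Fgfr2, Fgfr3, Axl and Ddr1 kept their calls wherever they were tested. A minimum of 10 counts in each library removes a gene absent from a line by construction, and left 1 receptor called, with 1 higher and 0 lower in SSM3. Leaving out each library in turn gave 5 receptors called each time.

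The changes of sign were in genes that did not pass the test. With library size only, Fgfrl1 was at 0.10, Flrt3 at 0.10, Csf1r at 0.17, Plcg1 at 0.14, Etv5 at 0.16 and Pros1 at 0.073 on the log2 scale. With at least 1 count in any library, Csf1r was at 0.01 and Etv5 at 0.0003. Without the 2 libraries with widespread low counts, Plcg1 was at 0.11 and Etv5 at 0.21. Over single libraries left out, Csf1r ranged from -0.122 to 0.0795, Flrt3 from -0.171 to 0.108, Gab2 from -0.0331 to 0.271, Plcg1 from -0.165 to 0.0569, Etv5 from -0.126 to 0.0977 and Pros1 from -0.213 to 0.117. Fgf13 lost its call under 13 of 16 alternatives and Dusp4 under 4, and the cause was not tested.

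The replicate number as a block called 9481 genes against 9566 without it and 5 receptors, and ended the call of Fgf13 (edgeR adjusted p = 0.0944) alone among the named genes. The deviations of same-numbered libraries correlated at 0.012 to 0.027, each library's highest with its own number, but under 0.1, so the numbers were not taken to pair the libraries.

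Depth limits the genes at the floor, for which a level below 0.668 CPM could not be told from none.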
